A study of Sus scrofa with 2 samples.

Results

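Satellite cells, the resident stem cells of skeletal muscle, were taken here as barcodes that held PAX7 transcripts and no MYOD1 transcripts, in single-cell libraries of longissimus dorsi, a back muscle, from Guangdong small-eared spotted (GDSS) and Yorkshire piglets. Members had 500 or more genes detected, at least 1 PAX7 UMI, at least 2 UMIs over PAX7, MYF5 and TAGLN3, fewer than 20 DCN and LUM UMIs per 10000, no UMI of MYOD1, of ANKRD1, POPDC3 and ALDH3A1 or of MYMK and MYOG, and fewer than 3 UMIs over TOP2A, CENPF and UBE2C. There were 912 members, 126 in the GDSS library and 786 in the Yorkshire library, among 26981 barcodes in all. They were set against the other barcodes with at least 2 UMIs over PAX7, MYF5 and TAGLN3 (the gate), 585 in GDSS and 4602 in Yorkshire. Members were thus chosen by the counts of these 14 genes, so the levels of those genes, and every difference between members and other gate barcodes, are a description.

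Each breed gave 1 library, so a difference between breeds cannot be told apart from one between animals, preparations or runs. The labels name the cells of both libraries intramuscular vascular stem cells and no treatment, and describe red cell lysis and magnetic bead removal of dead cells. The titles also carry the term P0, which the labels do not define. How many piglets went into a library, and whether the cells were cultured before capture, is not given in the sources used here. No value carries a test: intervals are 95%, cover counting error only and hold no spread between animals. Those of levels and ratios take each summed UMI as a separate draw, so they hold no spread between barcodes either. They are too narrow where UMIs are unevenly spread over barcodes. Members summed to 347603 UMIs in GDSS and 2480905 UMIs in Yorkshire, with medians of 2251 and 2836.5 UMIs and 828.5 and 1034 genes per barcode. Of 47 barcode sequences present in both libraries, 1 was a GDSS member and 4 were Yorkshire members.

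PAX7 is the paired-box transcription factor that marks satellite cells, which lie between the muscle fibre and its basement membrane. MYF5 and MYOD1 are helix-loop-helix factors of the myogenic programme: MYF5 is made in many satellite cells at rest, while MYOD1 protein accumulates when the cells are activated and move toward the myoblast state, and MYOG and the fusion factor MYMK follow in differentiating cells. Quiescent satellite cells are known from mouse for Notch activity, restraint of fibroblast growth factor signalling by SPRY1, and calcitonin receptor. Dissociation of muscle is known to induce immediate early genes in them.

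The markers given for these cells were present in both libraries. In members, GDSS had 483 CPM of PAX7 (413 to 562) and Yorkshire had 438 CPM (412 to 465), CPM being UMIs per 1000000 summed UMIs of a class. TAGLN3, an actin-binding calponin family gene, had 682 CPM in GDSS members, against 720 CPM in Yorkshire members. Chondrolectin, CHODL, had 374 CPM in GDSS members and 199 CPM in Yorkshire members, and the ammonium transporter RHCG had 196 CPM and 179 CPM. SPRY1 was at 337 CPM in GDSS members and 248 CPM in Yorkshire members, and the growth factor receptor FGFR4 at 121 CPM and 61.7 CPM. PNMT, which encodes the enzyme that methylates noradrenaline, was the lowest of the 7 markers, with 77.7 CPM in GDSS members and 36.7 CPM in Yorkshire members.

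Shares of barcodes with a UMI were compared after thinning each barcode to 1500 UMIs, which left 105 GDSS and 767 Yorkshire members and left out 21 and 19. Of the thinned members, 40.95% (31.5 to 51.0) in GDSS and 25.2% (22.1 to 28.4) in Yorkshire held SPRY1, and without thinning 50% and 39.6% did. Barcodes outside the gate with DCN and LUM at 20 or more per 10000, here called stromal by those 2 genes, held SPRY1 in 18.5% in GDSS and 21.8% in Yorkshire at the same depth. CHODL was held by 34.3% of GDSS members and 21.9% of Yorkshire members, against 4.39% and 5.96% of the stromal barcodes. RHCG was held by 30.5% of GDSS members and 18.9% of Yorkshire members, against 0.0859% and 0.465% of the stromal barcodes. FGFR4 was held by 18.1% of GDSS members and 7.43% of Yorkshire members, against 0.0245% and 0.38% of stromal barcodes. No background level was estimated, so the stromal shares are those of another class. At equal depth the shares of CHODL, RHCG and FGFR4 in members were above those in stromal barcodes, and that of SPRY1 in Yorkshire was close to the stromal share. They were nearer to the other gate barcodes, of which 29.5% in GDSS and 20.1% in Yorkshire held CHODL, 18.99% and 20.6% RHCG, and 10.2% and 8.24% FGFR4. The calcitonin receptor gene CALCR was held by 6.67% of GDSS members and 7.30% of Yorkshire members, against 6.58% and 7.29% of the other gate barcodes. Before thinning, stromal barcodes had medians of 3055 UMIs in GDSS and 3822 UMIs in Yorkshire.

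**Figure D1:**
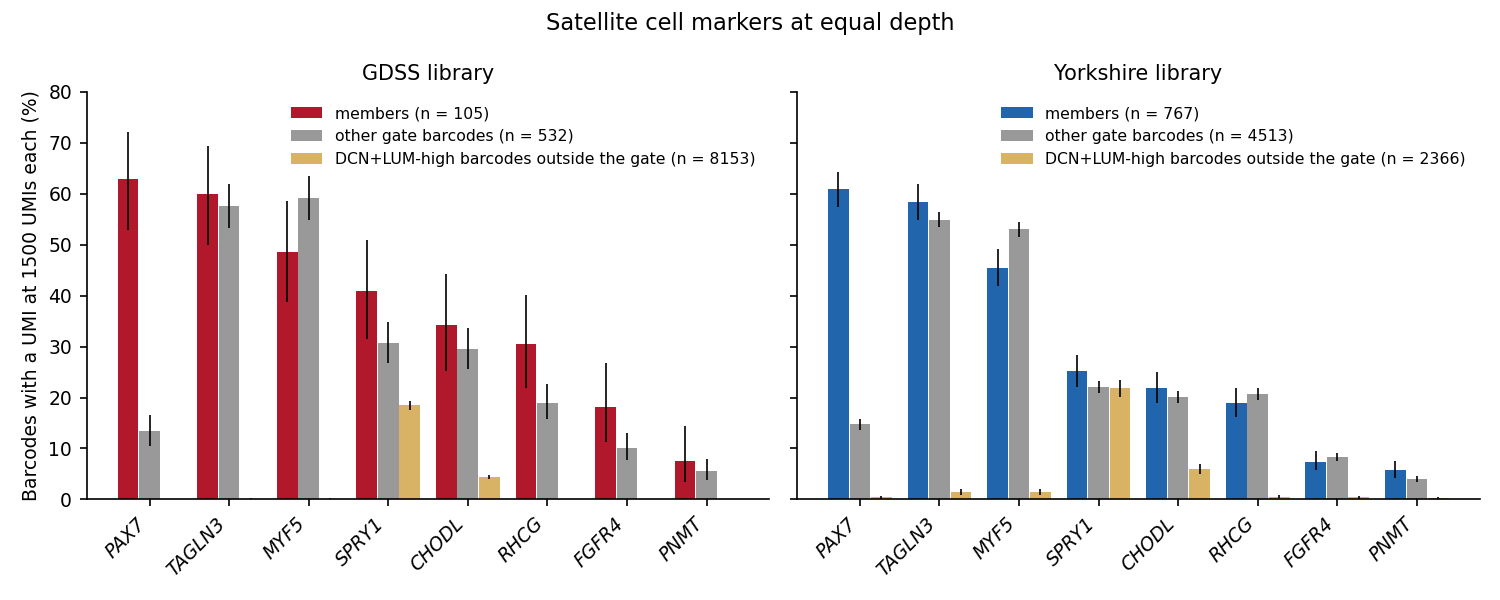
Share of barcodes (%) with at least 1 UMI of 8 genes after thinning to 1500 UMIs, in members, other gate barcodes and DCN+LUM-high barcodes outside the gate, for GDSS (left) and Yorkshire (right); bars are shares and lines exact 95% intervals of counting error. RHCG, FGFR4 and PNMT were near 0 in the stromal barcodes, whereas SPRY1 was in 18.5% and 21.8% of them; PAX7, TAGLN3 and MYF5 helped to choose the gate.

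The calls rest on few molecules. PAX7 was a single UMI in 97 of 126 GDSS members and 556 of 786 Yorkshire members, 2 UMIs in 20 and 178, and 3 or more in 9 and 52, with the highest counts at 4 and 7. The sum over PAX7, MYF5 and TAGLN3 was just at its minimum of 2 in 27 GDSS and 164 Yorkshire members. Just outside it, 62 GDSS and 424 Yorkshire barcodes with 500 genes had a single PAX7 UMI and neither of the other genes. MYF5 was present in 73 GDSS and 461 Yorkshire members and TAGLN3 in 101 and 606, while 7 and 29 held PAX7 alone. The highest DCN and LUM level of a member was 16.5 per 10000 in GDSS and 15.4 in Yorkshire, and this limit alone kept out 26 and 31 barcodes, the lowest of them at 24.5 per 10000 in GDSS and just above 20 in Yorkshire. No GDSS member and 10 Yorkshire members held a UMI of TOP2A, CENPF or UBE2C.

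Members with 2 or more PAX7 UMIs were set beside those with 1. CHODL was at 516 CPM in GDSS members with 2 or more PAX7 UMIs and 325 CPM in those with 1, and at 228 CPM and 186 CPM in Yorkshire, with intervals that overlapped in both libraries. SPRY1 was at 247 CPM in GDSS members with 2 or more and 368 CPM in those with 1, and at 250 CPM and 247 CPM in Yorkshire, and PNMT at 67.3 CPM and 81.3 CPM in GDSS and 26.9 CPM and 40.9 CPM in Yorkshire. FGFR4 ran opposite ways in the 2 libraries, at 67.3 CPM in GDSS members with 2 or more and 139 CPM in those with 1, but at 80.6 CPM and 53.5 CPM in Yorkshire. HEYL, a transcriptional repressor that Notch induces, was at 112 CPM in GDSS members with 2 or more PAX7 UMIs and 65.8 CPM in those with 1, and at 82.0 CPM and 39.2 CPM in Yorkshire, and its intervals overlapped in GDSS but not in Yorkshire. FOS was nearly level, at 15264 CPM and 15613 CPM in GDSS and 10408 CPM and 10653 CPM in Yorkshire. The 29 GDSS members with 2 or more PAX7 UMIs gave FGFR4 only 6 UMIs, and its GDSS intervals overlapped, at 24.7 to 146 CPM and 97.6 to 193 CPM.

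Members were 17.7% of 711 gate barcodes in GDSS and 14.6% of 5388 in Yorkshire. The gate itself held 6.16% of GDSS and 37.6% of Yorkshire barcodes with 500 or more genes, so members were 1.09% (0.911 to 1.30) of those barcodes in GDSS and 5.49% (5.12 to 5.88) in Yorkshire. The other gate barcodes, each assigned to the first condition it failed in the order DCN and LUM, cycling, MYMK and MYOG, ANKRD1 set, MYOD1 and PAX7, were at or above the DCN and LUM limit in 16.2% of the gate in GDSS and 4.03% in Yorkshire. Another 28.7% in GDSS and 39.6% in Yorkshire held ANKRD1, a stress-induced ankyrin repeat gene of muscle, POPDC3, a membrane protein gene of the Popeye family, or the aldehyde dehydrogenase gene ALDH3A1 (the ANKRD1 set). A further 64 barcodes in GDSS and 829 in Yorkshire held MYOD1, and 27.7% and 25.7% failed on PAX7 alone. Cycling barcodes were 0.281% and 0.371% of the gate, and barcodes with MYMK or MYOG 0.422% and 0.297%.

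Absence of a MYOD1 UMI varied with depth in Yorkshire. Among the PAX7 barcodes that met the rest of the rule, 83.4% (76.5 to 89.0) in GDSS and 68.6% (65.9 to 71.3) in Yorkshire had no MYOD1 UMI. In Yorkshire the share was 76.0% below 1500 UMIs, 76.4% from 1500 to under 3000, 63.3% from 3000 to under 6000 and 41.2% (29.4 to 53.8) at 6000 or more, where 28 of 68 barcodes had none. In GDSS it was 84.0%, 85.4% and 79.4% over the first 3 classes, and 8 of 10 barcodes in the deepest had none. Where MYOD1 was seen, it was a single UMI in 17 of 25 GDSS and 207 of 359 Yorkshire barcodes. Membership thus means that no MYOD1 UMI was detected at this depth, and does not show that MYOD1 RNA was absent.

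**Figure D2:**
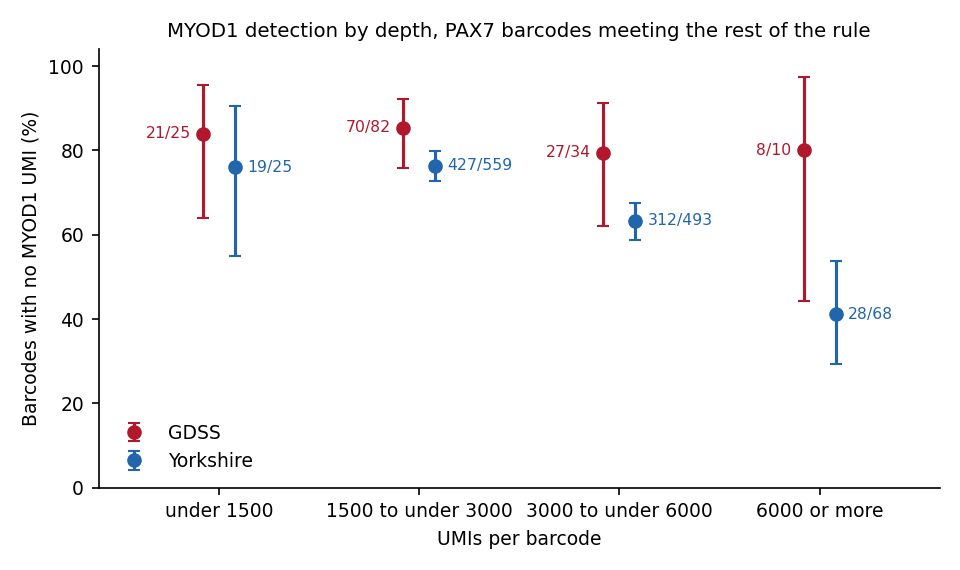
Share (%) of PAX7 barcodes meeting the rest of the rule that had no MYOD1 UMI, by UMIs per barcode, in GDSS (red) and Yorkshire (blue); points are shares, lines exact 95% intervals and labels the counts. In Yorkshire the share is 76.0% in the shallowest and 41.2% in the deepest class, while GDSS has only 10 barcodes in the deepest.

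Against the other gate barcodes, members held more RNA of a few genes and less of a larger number, several collagen genes among them. The 5114 genes measured each had a summed count of 50 UMIs or more over members and others in each library, and a gene was counted when it was at least 1.5-fold apart in the same direction in both. Of these, 5 genes (0.0978%) were higher and 148 (2.89%) lower in members, and in 5 and 109 of them both intervals left out equality. Since the rule itself made this contrast, nothing is read from these shares. Higher were HEYL, the growth factor PDGFA, the PDZ-LIM protein gene PDLIM4, the marker PNMT and 1 gene without a symbol.

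HEYL stood at 77.7 CPM (51.2 to 113) in GDSS members and 39.2 CPM (31.5 to 48.1) in the other GDSS gate barcodes, 1.98-fold (1.24 to 3.08). In Yorkshire it stood at 52.0 CPM (43.4 to 61.8) in members and 30.6 CPM (28.1 to 33.3) in the others, 1.70-fold (1.39 to 2.06). PDLIM4 was 2.36-fold (1.82 to 3.04) higher in GDSS members and 1.56-fold (1.34 to 1.80) higher in Yorkshire members, and PDGFA 1.80-fold (1.16 to 2.72) and 1.69-fold (1.30 to 2.17). PNMT was 2.70-fold (1.66 to 4.29) higher in GDSS and 1.55-fold (1.22 to 1.95) in Yorkshire, from 27 and 91 UMIs in members. HEYL was detected at equal depth in 13.3% of GDSS members and 7.43% of Yorkshire members, against 4.32% and 4.45% of the other gate barcodes. Among barcodes failing only on the ANKRD1 set, 3.57% (0.435 to 12.3) in GDSS and 6.63% (4.69 to 9.06) in Yorkshire held it. The Yorkshire share of HEYL in members was thus close to that of this class. CDKN1C, a cyclin-dependent kinase inhibitor, was at 1507 CPM in GDSS members and 889 CPM in the others, and at 1071 CPM and 779 CPM in Yorkshire, which is 1.70-fold in GDSS and 1.37-fold in Yorkshire.

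The markers showed smaller or unequal distances. CHODL was 1.70-fold (1.39 to 2.06) higher in GDSS members and 1.22-fold (1.11 to 1.35) in Yorkshire members, and RHCG 1.65-fold and 1.20-fold. SPRY1 was 1.28-fold and 1.24-fold higher. FGFR4 was 1.60-fold (1.11 to 2.25) higher in GDSS members and level in Yorkshire at 1.01-fold (0.848 to 1.20). The Notch receptor NOTCH3 was 2.17-fold (1.58 to 2.94) higher in GDSS and 1.14-fold (0.969 to 1.34) in Yorkshire.

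Among the lower genes were collagens and other matrix genes. COL1A1, a fibrillar collagen chain, stood at 121 CPM in GDSS members and 2613 CPM in the other GDSS gate barcodes, and at 111 CPM and 1169 CPM in Yorkshire. POSTN, periostin, had 1 UMI in GDSS members and 6 in Yorkshire members, at 2.88 CPM and 2.42 CPM against 125 CPM and 67.3 CPM in the others. The microfibril gene MFAP5 was 18.7-fold lower in GDSS and 8.60-fold lower in Yorkshire members, and COL6A3 19.6-fold and 8.30-fold lower. VCAM1, an adhesion receptor, was 2.97-fold and 3.83-fold lower, but 137 of the 157 GDSS UMIs of the others lay in barcodes above the DCN and LUM limit, and it stood at 23.0 CPM (9.94 to 45.3) in GDSS members and 13.9 CPM in the GDSS barcodes that failed on PAX7 alone. COL1A1 in the other gate barcodes lay mostly in those above the DCN and LUM limit, which had 7385 CPM in GDSS and 11987 CPM in Yorkshire, and stood at 166 CPM and 138 CPM in those that failed on PAX7 alone. Without comparators above that limit, 43 genes were lower and 4 higher, and 30 and 3 of them were among the original 148 and 5. HEYL, PDLIM4 and PDGFA were the 3 higher genes in both counts, and SPP1, CCL2, ACTC1, TGFB1 and IFI6 stayed among the lower. PNMT was then no longer counted as higher.

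**Figure D3:**
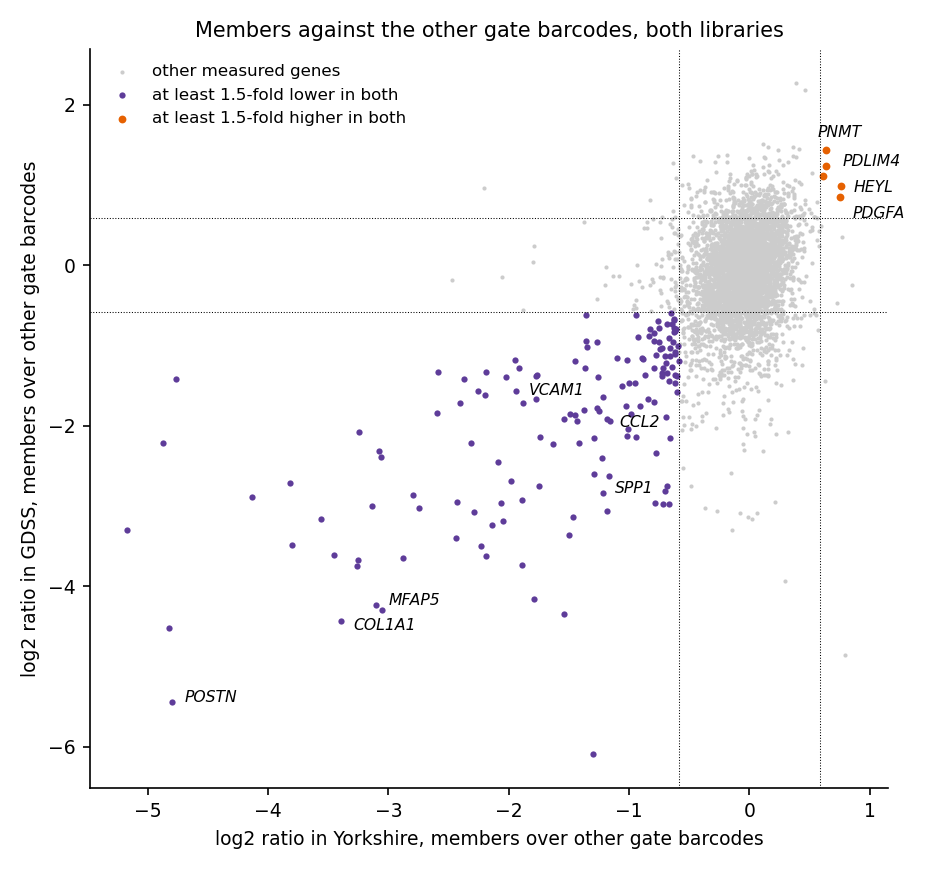
log2 ratio of CPM, members over other gate barcodes, in GDSS (vertical) and Yorkshire (horizontal) for 5114 genes; each point is a gene, dotted lines mark 1.5-fold and coloured points pass it in the same direction in both libraries. The 5 higher genes (orange) lie past the lines on both axes, just past on the Yorkshire axis, and the 148 lower genes (purple) include COL1A1 and POSTN toward the lower left.

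Among gene lists, the quiescence list had 18 of 20 genes measured, with HEYL higher and the sialomucin CD34 lower, and medians of 0.27 in GDSS and 0.12 in Yorkshire on the log2 scale beside -0.07 and -0.04 over all measured genes. Of 9 measured genes of 18 in the Notch list, 1 (HEYL) was higher and none lower, and of 10 measured of 16 for fibroblast growth factor receptors and feedback, 1 (SPRY2) was lower. The 12 measured genes of 20 for myogenic commitment had none counted, with medians of 0.02 in GDSS and -0.05 in Yorkshire. Of 10 measured of 20 for muscle differentiation, cardiac actin ACTC1 was lower, at 14.4 CPM against 52.2 CPM in GDSS and 12.5 CPM against 34.1 CPM in Yorkshire. The basement membrane and collagen list had 4 of 17 measured genes lower, COL6A1, COL6A3, NID2 and FN1, and none higher. Over all 5114 measured genes 0.0978% were higher and 2.89% lower. Since the rule itself made this contrast, nothing is read from the list counts. None of 18 measured immediate early genes, 14 heat shock chaperones, 5 S and G2M phase genes or 60 ribosomal protein genes was counted in either direction. Without comparators above the DCN and LUM limit, HEYL and ACTC1 were still counted. CD34, SPRY2, COL6A1, COL6A3, NID2 and FN1 were then no longer counted.

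Markers of other cell types were present, some of them in a few barcodes. The list for fibro-adipogenic stromal cells summed to 1761 CPM in GDSS members and 2140 CPM in Yorkshire members, beside 31170 CPM and 16274 CPM outside the gate, and 72 and 562 members held 3 or more such UMIs. PI16, one of that list, was at 0 in GDSS members. Endothelial markers summed to 440 CPM in GDSS members and 236 CPM in Yorkshire members, beside 235 CPM and 1349 CPM outside the gate, and 8 and 16 members held 3 or more such UMIs. Mural markers, those of pericytes and smooth muscle, summed to 1528 CPM in GDSS and 461 CPM in Yorkshire members, where 14 and 53 members held 3 or more and a single GDSS barcode held 195 of 531. Glial markers summed to 314 CPM and 145 CPM, with 70 of 109 GDSS UMIs and 128 of 360 Yorkshire UMIs in 1 barcode each. Macrophage markers were at 20.1 CPM and 26.6 CPM, with 5 of 9 at 0 in GDSS and 1 of 9 in Yorkshire. Of the lymphocyte list only CD79A gave UMIs in GDSS members, 42 in all, and CD3E, CD3D, CD2 and MS4A1 were at 0 in members of both libraries. That list summed to 121 CPM in GDSS members and 254 CPM in Yorkshire members. It was at 109 CPM and 248 CPM in the other gate barcodes, and 82.4 CPM and 203 CPM outside the gate. In all, 3 GDSS and 49 Yorkshire members held 3 or more such UMIs. Myofibre markers summed to 455 CPM in GDSS and 303 CPM in Yorkshire members, and tenocyte markers to 20.1 CPM and 19.3 CPM. Erythroid markers gave 0 and 1 UMIs, and adipocyte markers 2 and 4. Members with 3 or more UMIs over the endothelial, mural, glial, macrophage and lymphocyte lists numbered 28 of 126 in GDSS and 198 of 786 in Yorkshire, and a value without them is given beside each named difference between breeds that they moved by over 1.5 times, took across 1.5-fold or whose interval they took across equality. The part of these markers in the other differences was not tested. The limit of 3 is on raw UMIs, so deeper barcodes reach it more readily, and reaching it does not show another cell type.

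A second comparison was with barcodes that met every condition except that they held MYOD1, 25 in GDSS and 359 in Yorkshire. Of 908 genes with 50 UMIs or more in each library, 1 (0.11%) was higher in members than in these MYOD1-positive counterparts in both libraries and 0 (0%) were lower. In GDSS alone 116 were 1.5-fold higher and 75 lower, from 76373 counterpart UMIs, and in Yorkshire 2 and 2, from 1352807. The higher gene was ACTA1, skeletal muscle actin, at 337 CPM in GDSS members and 78.6 CPM in counterparts, and at 189 CPM and 106 CPM in Yorkshire. In GDSS members 82.9% of its 117 UMIs lay in 5 barcodes. The myofibre list, which holds ACTA1, summed to 455 CPM in GDSS members and 157 CPM in counterparts, and to 303 CPM and 169 CPM in Yorkshire. Scaling with TMM shifted all GDSS log2 ratios of this comparison by 0.25 and gave 4 higher genes and 0 lower.

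Intervals of CHODL and SPRY1 held equality in both libraries. CHODL was at 374 CPM in GDSS members and 511 CPM in counterparts, and at 199 CPM and 173 CPM in Yorkshire. SPRY1 was 0.952-fold (0.622 to 1.51) in GDSS and 1.04-fold (0.903 to 1.19) in Yorkshire. FGFR4 was lower in members in both libraries, 0.659-fold (0.353 to 1.31) in GDSS and 0.719-fold (0.561 to 0.924) in Yorkshire. CDKN1C stood at 1.16-fold (0.937 to 1.46) and 1.00-fold (0.939 to 1.07). DES, the muscle intermediate filament, was 1.23-fold (0.469 to 4.08) in GDSS and 0.901-fold (0.788 to 1.03) in Yorkshire. CDH15, the muscle cadherin, was at 40.3 CPM in GDSS members and 118 CPM in counterparts, from 14 and 9 UMIs, 0.342-fold (0.138 to 0.895), and 0.949-fold (0.767 to 1.18) in Yorkshire. FOS was 0.797-fold (0.752 to 0.844) in GDSS and 0.971-fold (0.951 to 0.991) in Yorkshire.

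Yorkshire alone, with 4009 genes of 100 or more UMIs, had 42 higher (1.05%) and 64 lower (1.6%) at 1.5-fold, and the interval left out equality in 37 and 62. With TMM scaling the split was 59 higher and 43 lower. The highest ratio was that of TNNT3, a fast skeletal troponin, at 44.3 CPM in members and 14.8 CPM in counterparts, 2.999-fold (1.85 to 5.10). Of its UMIs, 5 barcodes held 47.3% in members and 5 held 40% in counterparts. The sarcomere genes ACTA1, MYLPF and MYL1 were 1.78-fold, 1.73-fold and 1.59-fold higher. In members 5 barcodes held 34.3%, 22.7% and 27.7% of their UMIs, and in counterparts 29.9%, 46.9% and 44.7%. ACTA1 and MYLPF are themselves on the myofibre list, so the direction of that list adds nothing to theirs. IGFBP5, an insulin-like growth factor binding protein, stood at 249 CPM in members and 135 CPM in counterparts, 1.85-fold (1.57 to 2.20). HEYL stood at 52.0 CPM and 29.6 CPM, 1.76-fold (1.22 to 2.57), and the lectin LGALS3 at 64.5 CPM and 30.3 CPM, 2.13-fold (1.5 to 3.08). ID2, an inhibitor of helix-loop-helix factors, stood at 112 CPM in members and 168 CPM in counterparts, lower by 1.26-fold to 1.80-fold. The cell cycle gene CKS2 was 1.58-fold lower (1.27 to 1.97). The largest distances were cytokine genes: CCL4 was 17.7-fold lower in members, CXCL8 21.8-fold and CCL8 27.2-fold, but 5 counterparts held 99.4%, 100% and 100% of the UMIs of these genes in that class. Macrophage markers summed to 26.6 CPM in members and 125 CPM in counterparts, where 1 barcode held 139 of 169 UMIs. The part of the macrophage and myofibre markers in these differences was not tested. These genes were taken from this table after their values were seen.

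Barcodes that met the rule except for a UMI of the ANKRD1 set numbered 62 in GDSS and 547 in Yorkshire, and the set was a single UMI in 33 and 283 of them. This comparison was added after the files had been seen. The counterparts were deeper, with medians of 2925.5 UMIs in GDSS and 3386 in Yorkshire, against 2251 and 2836.5 in members. Of 1296 genes measured, 15 (1.16%) were higher in members in both libraries and 26 (2.01%) lower, and both intervals left out equality in 14 and 23. FOS and EGR1, immediate early transcription factor genes, were among the higher. FOS had 15523 CPM (15112 to 15943) in GDSS members and 9392 CPM (8990 to 9808) in these counterparts, 1.65-fold, and 10580 CPM and 4916 CPM in Yorkshire, 2.15-fold. EGR1 was 1.68-fold (1.54 to 1.84) and 2.20-fold (2.11 to 2.30) higher. SOCS3, which restrains cytokine signalling, was 2.30-fold (1.73 to 3.09) and 1.88-fold (1.71 to 2.06) higher, and the kinase PIM3 2.57-fold and 1.99-fold.

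Of 24 immediate early genes 14 were measured, of which 3 (FOS, EGR1 and SOCS3) were higher and none lower. Over all measured genes 1.16% were higher and 2.01% lower, and with so few genes nothing is read from this share. The list had medians of 0.56 in GDSS and 0.53 in Yorkshire beside -0.04 and -0.04 over all measured genes. CDKN1C was at 1507 CPM in GDSS members and 748 CPM in counterparts, 2.02-fold (1.69 to 2.42), and at 1071 CPM and 731 CPM in Yorkshire, 1.47-fold (1.38 to 1.56), just under the limit. TXNIP, which binds thioredoxin, was 1.35-fold (1.13 to 1.62) and 1.86-fold (1.75 to 1.98) higher. The quiescence list had 11 of 20 genes measured, none counted, and medians of 0.41 in GDSS and 0.37 in Yorkshire. CHODL was 1.43-fold and 1.11-fold, and SPRY1 1.24-fold and 1.51-fold.

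Among the genes lower in members was SPP1, osteopontin. It stood at 20.1 CPM (8.10 to 41.5) in GDSS members and 261 CPM (198 to 339) in counterparts, and at 29.0 CPM (22.7 to 36.5) and 149 CPM (133 to 166) in Yorkshire. In Yorkshire members 5 barcodes held 72.2% of its 72 UMIs. The chemokine CCL2 stood at 190 CPM and 959 CPM in GDSS and at 184 CPM and 578 CPM in Yorkshire, 5.05-fold and 3.14-fold lower. Urokinase, PLAU, was 2.04-fold lower in GDSS members and 3.21-fold in Yorkshire, annexin ANXA1 1.98-fold and 2.14-fold, S100A6 2.30-fold and 1.83-fold, and the tubulin TUBB6 2.79-fold and 1.75-fold. Of the member UMIs, 5 barcodes held 75.8% of CCL2 and 69.6% of ANXA1 in GDSS. None of 14 heat shock chaperones, 59 ribosomal protein genes and 11 basement membrane genes was counted. As ANKRD1, POPDC3 and ALDH3A1 set both classes, these distances too are a description. The counts changed with depth: thinned to 1500 UMIs, 9 genes were higher and 5 lower. Among barcodes with 3000 or more UMIs, 14 were higher and 6 lower.

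**Figure D4:**
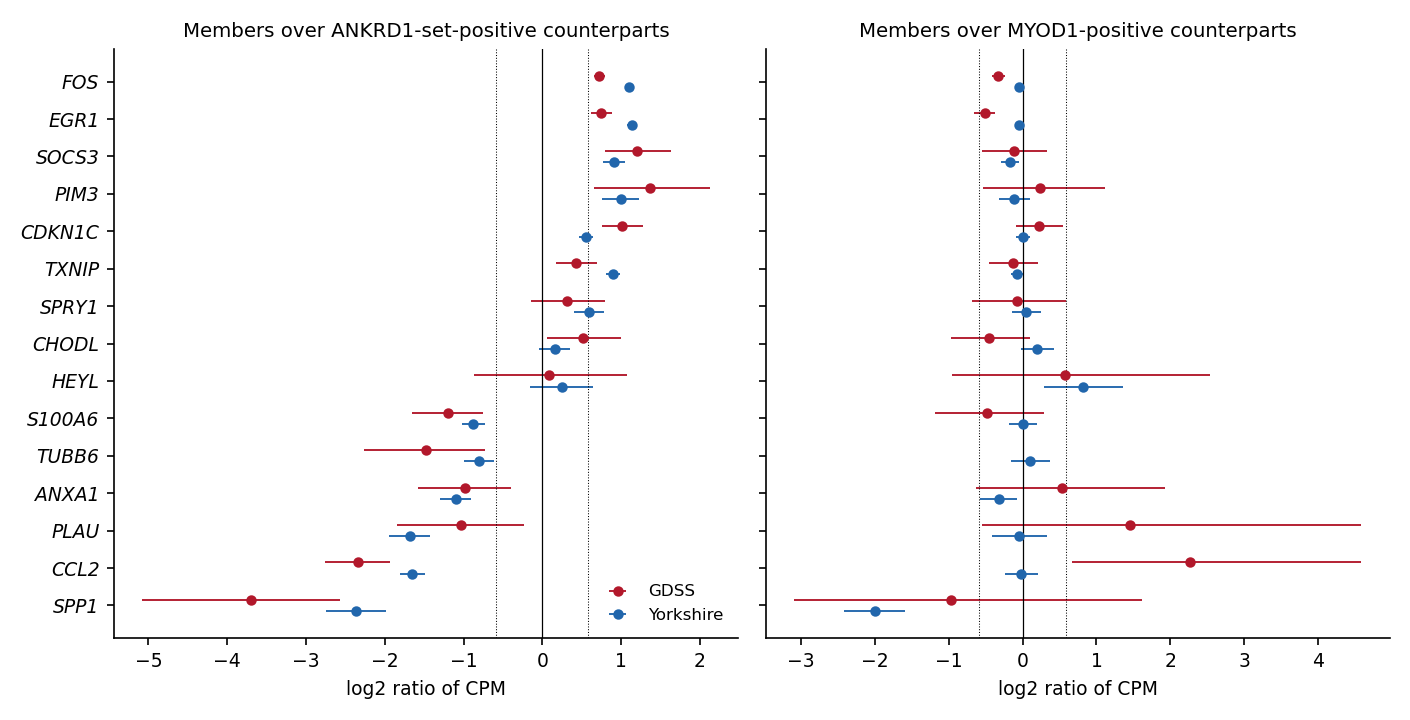
log2 ratio of CPM, members over ANKRD1-set-positive counterparts (left) and over MYOD1-positive counterparts (right), for 15 genes in GDSS (red) and Yorkshire (blue); points are ratios, lines exact 95% intervals, dotted lines 1.5-fold, and TUBB6 in GDSS is not drawn on the right, where counterparts held 0 UMIs. FOS, EGR1, SOCS3 and PIM3 lie right of 0 and SPP1, CCL2 and PLAU left of 0 in both libraries on the left, while on the right the Yorkshire points lie within 1.5-fold except those of HEYL and SPP1.

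Members differed widely among themselves in immediate early RNA. At 1500 UMIs per barcode, the 24 genes made up 0.133% of UMIs in the lowest GDSS member, 2.60% in the median and 11% in the highest, and 0%, 1.33% and 13.7% in Yorkshire. The heat shock list made up 0.200%, 1.33% and 13.2% in GDSS and 0.0667%, 2.27% and 12.3% in Yorkshire. Ranges of the 2 libraries overlapped almost entirely for both lists, with GDSS members higher at the median for immediate early genes and Yorkshire members higher for chaperones. Ribosomal protein genes made up 27.3% of the UMIs at the median in GDSS and 25.1% in Yorkshire.

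The difference between GDSS and Yorkshire members was not used by the rule. Of 3147 genes with a summed count of 100 UMIs or more, 285 (9.06%) were at least 1.5-fold higher and 717 (22.8%) at least 1.5-fold lower in GDSS members, and the interval left out equality in 237 and 515, with a median log2 ratio of -0.11 over all. The same distance in the same direction was present in the other gate barcodes for 86 of the 285 (30.2%) and 322 of the 717 (44.9%), and in stromal barcodes for 35 of 281 (12.5%) and 159 of 715 (22.2%) measured there. Over all genes measured in members and in the class, 4.93% were that much higher and 13.8% that much lower in the other GDSS gate barcodes, and 5.13% and 11% in stromal barcodes. The opposite sign was present for 21 of the 285 and 53 of the 717 in the other gate barcodes, and for 109 and 187 in stromal barcodes. Without members that held 3 or more UMIs of other types' markers, 2134 genes were measured, 196 were higher and 602 lower, and 110 and 455 of them were among those counted with all members.

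PAX7, TAGLN3 and MYF5, which the rule itself uses, differed little between the libraries, at 1.10-fold (0.932 to 1.30), 0.948-fold (0.824 to 1.09) and 0.984-fold (0.873 to 1.11). PAX7 was 1.25-fold (1.03 to 1.51) in GDSS over Yorkshire without members holding other types' markers. Of the 5 other markers, 3 were higher in GDSS members, where 9.06% of all genes were higher. With so few genes, nothing is read from this share. CHODL stood at 374 CPM in GDSS members and 199 CPM in Yorkshire members, 1.88-fold (1.54 to 2.29), with 50.8% and 34.7% of members holding it. FGFR4 stood at 121 CPM and 61.7 CPM, 1.96-fold (1.36 to 2.77), and PNMT was 2.12-fold (1.32 to 3.28). In the other gate barcodes the same ratios were 1.36-fold for CHODL, 1.24-fold for FGFR4 and 1.21-fold for PNMT. SPRY1 was 1.36-fold (1.10 to 1.66) and RHCG 1.09-fold (0.832 to 1.41).

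Among genes higher in GDSS members, some were spread over many barcodes and some lay in a few. LOXL1, which cross-links elastin, stood at 178 CPM in GDSS members and 53.6 CPM in Yorkshire members, 3.33-fold (2.42 to 4.53), and 32.5% and 13.7% of members held it. It was 1.67-fold in other gate barcodes and 1.10-fold in stromal barcodes. MRPS2, a mitochondrial ribosome protein gene, was 3.01-fold (1.92 to 4.60) and the lysosomal sialidase NEU1 had 135 CPM in GDSS members and 45.1 CPM in Yorkshire members, a ratio between 2.08 and 4.25. IGFBP6 was 7.05-fold (5.08 to 9.78), with 74.0% of its GDSS UMIs in 5 barcodes, and 6.54-fold in other gate barcodes. Of the genes that lay in few barcodes, the myosin light chain MYL9 of smooth muscle was 6.47-fold and the endothelial gene EGFL7 3.27-fold, with 93.1% and 94.7% of their GDSS UMIs in 5 barcodes. EGFL7 is one of the endothelial markers by which members were removed, so its value without them is set by that removal. Without members that held other types' markers, MYL9 was 0.959-fold (0.0216 to 7.15), LOXL1 3.72-fold (2.55 to 5.34), NEU1 3.16-fold, MRPS2 2.76-fold and IGFBP6 4.34-fold (2.02 to 8.93).

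KLF2, ZFP36, NOTCH3 and ID3 were also higher in GDSS members. The zinc finger factor KLF2 stood at 909 CPM in GDSS members and 356 CPM in Yorkshire members, 2.56-fold (2.24 to 2.91), and 1.79-fold (1.45 to 2.18) without members holding other types' markers. ZFP36, which promotes messenger RNA decay, was at 2885 CPM and 1498 CPM, 1.93-fold (1.79 to 2.07), and 1.74-fold in other gate and 2.19-fold in stromal barcodes. NOTCH3 stood at 164 CPM and 70.1 CPM, 2.34-fold (1.70 to 3.17), beside 1.23-fold in other gate barcodes. ID3, an inhibitor of helix-loop-helix factors, was 2.35-fold (1.99 to 2.77) with all members and 1.79-fold (1.38 to 2.31) without those holding other types' markers. Of 17 immediate early genes measured, 6 were higher and 2 lower, beside 9.06% and 22.8% over all genes, with a median of 0.39 in members, against -0.11 over all genes, and 0.28 in other gate and 0.56 in stromal barcodes.

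Among genes lower in GDSS members was COL14A1, a fibril-associated collagen chain. It stood at 210 CPM (165 to 264) in GDSS members and 1236 CPM (1193 to 1281) in Yorkshire members, 5.89-fold lower (4.67 to 7.53), and was held by 33.3% and 83.8% of members. It was 4.31-fold lower in other GDSS gate barcodes and 1.95-fold lower in stromal ones. CYP2B22, a cytochrome, had 6 UMIs in GDSS members and 403 in Yorkshire members, 9.41-fold lower (4.29 to 25.8), and was 11.5-fold lower in other gate and 10.4-fold lower in stromal barcodes. NRN1, neuritin, had 0 and 124 UMIs, at least 5.79-fold lower with 3 counts over the summed GDSS members as the limit that a count of 0 allows, and at least 3.78-fold lower without members holding other types' markers.

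EZH2, the methyltransferase of the Polycomb complex, had 5 UMIs in GDSS members and 306 in Yorkshire members, at 14.4 CPM and 123 CPM, 8.57-fold lower (3.63 to 26.6). In the other gate barcodes it was 1.99-fold lower in GDSS, and in stromal barcodes level at 1.07-fold. The elongation factor gene SUPT6H had 5 and 213 UMIs, 5.97-fold lower (2.52 to 18.6), beside 2.19-fold in other gate barcodes; without members holding other types' markers it had 1 and 146 UMIs, 19.03-fold lower (3.36 to 757). DES stood at 80.6 CPM in GDSS members and 234 CPM in Yorkshire members, 2.90-fold lower (1.99 to 4.41), and was 3.11-fold lower in other gate barcodes. CDH15 was 2.42-fold lower (1.42 to 4.50) with all members and 1.63-fold lower, at 0.612-fold (0.319 to 1.08), without those holding other types' markers. Of 9 measured genes of the commitment list 3, DES, CDH15 and the transcription factor MSC, were lower and none higher, where 22.8% of all genes were lower. With so few genes, nothing is read from this share.

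Genes of the Notch pathway, the G1 phase and niche adhesion lay on both sides, where 9.06% of all genes were higher and 22.8% lower. Of 8 measured Notch genes the target HEY1 and NOTCH3 were higher and the receptors NOTCH1 and NOTCH2 lower. NOTCH1 had 7 UMIs in GDSS members and 108 in Yorkshire members, 2.16-fold lower (1.01 to 5.51), and the intervals of NOTCH2 (0.253 to 1.12) and HEY1 (0.945 to 2.66) held equality. HEY1 was 1.14-fold (0.467 to 2.40) without members holding other types' markers. Of 7 measured genes of the G1 cyclin and kinase list, CCND3 was 1.83-fold (1.09 to 2.94) and CDK4 1.80-fold (1.20 to 2.62) higher in GDSS members. CDK6, the related kinase, had 40.3 CPM in GDSS members and 81.4 CPM in Yorkshire members, 2.02-fold lower (1.18 to 3.76), and cyclin CCND2 was 1.53-fold lower (1.08 to 2.24), but 1.33-fold lower (0.859 to 2.17) without members holding other types' markers. Of 12 measured adhesion and receptor genes the tetraspanin CD82 was higher, and CDH15, the integrin ITGA6, the chemokine receptor CXCR4 and the growth factor receptor MET lower. With so few genes, nothing is read from these shares. The intervals of ITGA6 (0.344 to 1.17) and MET (0.235 to 1.03) held equality. Without members holding other types' markers ITGA6 was 2.67-fold lower (1.005 to 10.04), MET 1.35-fold lower (0.655 to 3.24) and CD82 1.61-fold higher (0.966 to 2.56). CXCR4 had 63.3 CPM in GDSS members and 114 CPM in Yorkshire members, and was 1.75-fold lower in other GDSS gate barcodes too.

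Chaperones did not all lie on the same side. HSP90AA1, the inducible cytosolic chaperone, was at 3970 CPM in GDSS members and 7255 CPM in Yorkshire members, 1.83-fold lower (1.73 to 1.93), but 1.62-fold higher in GDSS in stromal barcodes. HSPH1 stood 1.49-fold lower with all members and 2.24-fold lower without those holding other types' markers. CRYAB, a small heat shock protein gene, ran the other way at 1418 CPM and 642 CPM, 2.21-fold (1.99 to 2.45), with 53.8% of GDSS UMIs in 5 barcodes. Of 14 measured chaperones 1 was higher and 2 lower, no larger a share than over all genes, with medians of -0.24 in members, beside -0.11 over all genes, -0.06 in other gate and 0.65 in stromal barcodes. FOSL1 was 4.13-fold lower (2.28 to 8.35) in GDSS members, the insulin receptor substrate IRS2 1.94-fold (1.37 to 2.83) and 3.07-fold (1.77 to 5.83) without members holding other types' markers, and the lipid carrier APOE 2.38-fold (1.53 to 3.90).

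**Figure D5:**
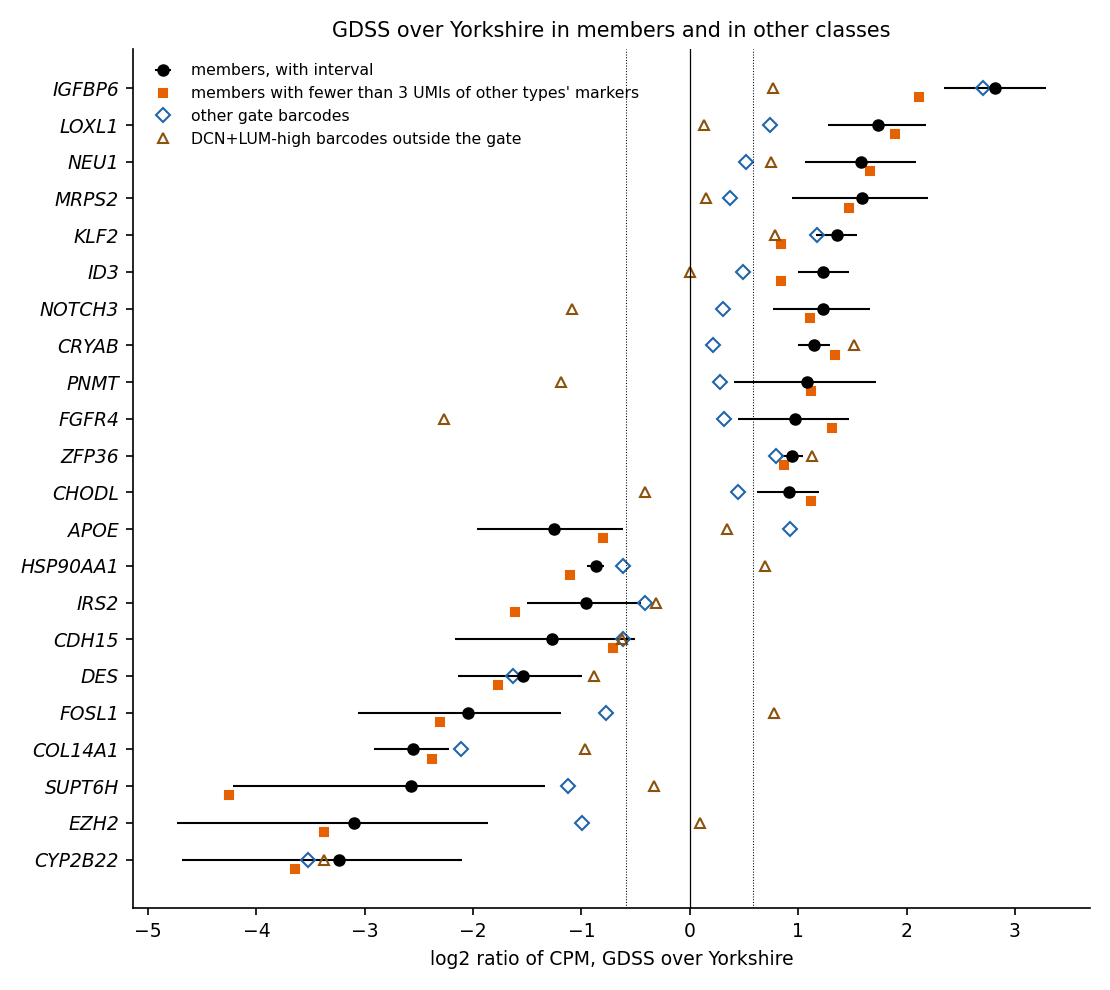
log2 ratio of CPM, GDSS over Yorkshire, for 22 genes in all members (black, with exact 95% intervals), in members with fewer than 3 UMIs of other types' markers (orange), in other gate barcodes (blue) and in DCN+LUM-high barcodes outside the gate (brown); dotted lines mark 1.5-fold. LOXL1, NEU1 and MRPS2 are farther right in members than in either other class, and CYP2B22 is left of 0 in all of them.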

How the data were processed

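The data were 2 single-cell libraries, 1 GDSS and 1 Yorkshire. The deposited values were raw UMI counts per gene and barcode, made with software version 3.1.0 per the file headers and Cell Ranger per the submitters' processing notes, which also name R 3.5.2; per the labels the kit was v2. For the genome build, nothing was given in the sources used here. Files held 12286 GDSS barcodes with 42093851 UMIs and 14695 Yorkshire barcodes with 54300953 UMIs, none under 500 UMIs. Of 21301 features, 14846 had a symbol in the files, 687 took one from the RefSeq gene table and 5768 had none.

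Counts were summed per library and class and scaled to CPM. Intervals were exact Poisson for levels, Clopper-Pearson for shares and conditional binomial for ratios, at 95%. UMIs counted in 1 library are not replicates, so no test was run. Against other classes a gene was counted when 1.5-fold apart in the same direction in both libraries with 50 UMIs or more in each, and between breeds or in Yorkshire alone with 100 UMIs or more. A count of 0 was set to a floor of 3 counts over the class. Doublets were scored with scrublet but not removed: 0 GDSS and 11 Yorkshire members scored 0.3 or more. Shares were also computed after thinning to 1500 UMIs. Python 3.11.15, numpy 2.4.6, scipy 1.17.1, pandas 2.3.3, scanpy 1.11.5, matplotlib 3.10.9 and, for TMM, R 4.3.3 with edgeR 4.0.16 were used. The procedure was checked on simulated data, with sums drawn as independent UMIs. That check cannot show how intervals behave where a few barcodes hold most UMIs of a gene.

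Members and gene lists were chosen with earlier results of these data known. Named were markers, rule genes, the 12 highest and 12 lowest genes by the smaller log2 ratio of both libraries with 20 CPM or more (the 10 highest and 10 lowest between breeds), and up to 4 genes per list; the text describes part of these. Genes of the Yorkshire comparison, the ANKRD1-set comparison and the removal of DCN and LUM-high comparators were added after the data were seen. Alternatives were depth, PAX7 and MYOD1 limits, mitochondrial share above 10%, doublet score, other types' markers, scaling and gene minimum.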

Additional observations from a re-analysis of the deposited data

Results flagged for a closer look

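For 7 genes the GDSS over Yorkshire ratio had opposite signs in members and in another class of the same libraries. The differences were not tested, since each breed had 1 library. MYL9 had a log2 ratio of 2.69 in members and -0.98 in stromal barcodes, and EGFL7 had 1.71 and -1.18, while 5 GDSS members held 93.1% and 94.7% of their GDSS UMIs. NOTCH3 had 1.23 in members and -1.08 in stromal barcodes, and its ratio was 2.15-fold in members without 3 or more UMIs of other types' markers. CD82, a tetraspanin, had 0.78 in members and -0.59 in stromal barcodes. HSP90AA1 had -0.87 in members and 0.70 in stromal barcodes, and FOSL1, an AP-1 subunit, had -2.05 and 0.78. APOE had -1.25 in members and 0.93 in other gate barcodes.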

How the results depend on the processing

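Of 140 recomputed shares and counts 60 moved, as did 184 of 1341 ratios of named genes and 14 of 1004 list values. In GDSS, FGFR4 over other gate barcodes reversed to -0.29 (log2) with 2 or more PAX7 UMIs, and HEY1 between breeds to -0.0088 with the mean over barcodes of CPM; the cause was not tested. No paired analysis was possible because each breed had 1 library, and no replicate could be left out.

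Members were 16.1% of the Yorkshire gate after thinning, 16.0% without barcodes holding other types' markers and 18.4% with MYOD1 of 0 or 1 allowed. They were 11.8% in GDSS and 11.7% in Yorkshire among barcodes with 3000 or more UMIs, and 4.08% and 4.27% with 2 or more PAX7 UMIs. Thinned, 1 gene was higher and 36 lower against other gate barcodes, 1 lower against MYOD1-positive counterparts (28 lower in Yorkshire alone), 9 higher and 5 lower against ANKRD1-set-positive counterparts, and 143 higher and 394 lower between breeds. With 3000 or more UMIs, 2 were higher and 1 lower against MYOD1-positive and 6 lower against ANKRD1-set-positive counterparts, and 186 higher between breeds. With 2 or more PAX7 UMIs, 37 were higher against other gate barcodes, 3 against MYOD1-positive (26 in Yorkshire alone), 4 higher and 2 lower against ANKRD1-set-positive counterparts, and 94 higher and 227 lower between breeds. With MYOD1 of 0 or 1 allowed, 3 were higher and 2 lower against the counterparts left, and 140 and 126 in Yorkshire alone. Without barcodes holding other types' markers, 2 were higher and 39 lower against other gate barcodes, 4 higher against MYOD1-positive counterparts (36 lower in Yorkshire alone) and 13 lower against ANKRD1-set-positive ones. Without comparators above the DCN and LUM limit 43 were lower.

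TMM and median-of-ratios scaling gave 4 higher and 4 higher against MYOD1-positive counterparts. The mean over barcodes of CPM gave 3 higher against other gate barcodes, and 2 higher and 1 lower against MYOD1-positive counterparts. A minimum of 10 UMIs, which measures more genes, gave 93 higher and 357 lower against other gate barcodes, 25 and 36 against MYOD1-positive counterparts (789 and 1212 in Yorkshire alone), 107 and 140 against ANKRD1-set-positive ones, and 2285 and 2139 between breeds. A minimum of 500 UMIs, which measures fewer, gave 0 and 20 against other gate barcodes, 0 higher against MYOD1-positive counterparts (2 and 2 in Yorkshire alone), 2 and 0 against ANKRD1-set-positive ones, and 36 and 113 between breeds.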
